A study of Mus musculus with 8 samples.

Results

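The genes described here are 60 genes of the mitotic machinery and the spindle checkpoint, taken by gene symbol from a list that names no measured value. The list was chosen with earlier results of these data known. All 60 were found once each among the 39179 gene IDs listed for every library. Stranded sequencing of total RNA was carried out on 8 libraries from C57BL/6 mouse bone marrow, 4 of cultured common lymphoid progenitors (cCLP) and 4 of common lymphoid progenitors isolated fresh (ex vivo CLP). Common lymphoid progenitors are marrow cells that give rise to all lymphoid lineages. The cCLP cells had been kept for 2 months on OP9, a mouse stromal cell line, with Flt3L and IL-7 at a low dose. Both groups were sorted as lineage-negative cells that carried Flk2, IL7R and CD27 and lacked Ly6d. The labels name no transgene, animal, culture or batch. The p-values therefore reflect no more than the variation among these libraries, which may be technical. The comparison asks how the mitotic genes of the cultured cells differ in RNA level from those of the freshly isolated cells.

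Cells enter mitosis when Cdk1 bound to A- and B-type cyclins phosphorylates its targets, after which the Aurora and Polo-like kinases, motor proteins and the kinetochores build the spindle and attach it to the chromosomes. The spindle checkpoint holds back the anaphase-promoting complex until every chromosome is attached, and separase then opens cohesin so that sister chromatids part and the cell divides. Most of these genes are transcribed late in the cell cycle, and their RNA is low in resting cells. Progenitors of the bone marrow divide as they mature.

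The values are the whole numbers that the authors deposited for each gene, on a scale that no label names, here divided by a factor per library and called scaled values. Means of scaled values are given ± SD over cCLP 2 to 4 and over ex vivo CLP 1, 3 and 4 (n = 3 each), and log2 fold changes ± SE. They vary less between libraries than read counts can, so the depth is unknown and a level is compared between libraries and never between genes. A log2 fold change is the mean of log2(scaled value + 1) in cCLP minus that in ex vivo CLP, which understates the change of low genes. A gene was tested where its scaled value reached 10 in as many libraries as a group holds, and was called at an adjusted p below 0.05. The deposited values summed to between 378594 and 704305 per library, and between 11371 and 12779 genes were above 0.

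The libraries labelled cCLP 1 and ex vivo CLP 2 lay with the other group. Across genes, the profile of the library labelled cCLP 1 had correlations of 0.783, 0.793 and 0.782 with cCLP 2, 3 and 4, against 0.97, 0.948 and 0.98 with ex vivo CLP 1, 3 and 4. That of the library labelled ex vivo CLP 2 had correlations of 0.959, 0.967 and 0.986 with cCLP 2, 3 and 4, against 0.802, 0.766 and 0.739 with ex vivo CLP 1, 3 and 4. The mitotic genes showed the same placement. The library labelled cCLP 1 lay above each of cCLP 2, 3 and 4 for 53 of the 60 genes, and below each of them for 1. The library labelled ex vivo CLP 2 lay below each of ex vivo CLP 1, 3 and 4 for 48 genes, and above each of them for 3. The same shares over all genes were not computed, so these counts do not set the mitotic genes apart. Each comparison was therefore made over all 8 libraries as labelled and over the 6 libraries without these 2. No library was moved to the other group. The libraries left out were chosen from the data, so the p-values over 6 libraries hold only given that choice.

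The genes of the sort gate were present, but not evenly. Flt3, which encodes Flk2, and Cd27 were above 0 in all 8 libraries. The deposited values of Il7r, before scaling, were 28, 213, 204 and 256 in cCLP 1 to 4, against 61, 193, 14 and 24 in ex vivo CLP 1 to 4. Those of Ly6d, which both gates select against, were 22, 1, 1 and 1 in cCLP 1 to 4, against 28, 0, 28 and 41 in ex vivo CLP 1 to 4. Myeloid and erythroid markers split the libraries in the same way. The summed scaled values of 9 neutrophil and granule genes were 1476 in the library labelled cCLP 1 and between 260 and 286 in cCLP 2 to 4, against 162 in the library labelled ex vivo CLP 2 and between 1196 and 2885 in ex vivo CLP 1, 3 and 4. In cCLP 2 to 4, 7 of these 9 genes were listed at 0 and Prtn3 at 1, so the sums there were almost all Mpo. The deposited values of Mpo were 787, 245, 284 and 339 in cCLP 1 to 4. In ex vivo CLP 1 to 4 they were 302, 144, 744 and 1355. The sums of 8 monocyte, macrophage and dendritic cell genes were 489 in cCLP 1 and between 15.9 and 24.3 in cCLP 2 to 4, against 13.4 in ex vivo CLP 2 and between 470.02 and 597 in the other ex vivo CLP libraries. Of 9 erythroid and megakaryocyte genes, the sums were 17.2 in cCLP 1 and between 4.21 and 7.76 in cCLP 2 to 4, against 3.35 in ex vivo CLP 2 and between 9.67 and 52.1 in ex vivo CLP 1, 3 and 4. The sums of 8 B lineage genes lay between 15.5 and 35.3 in cCLP, against 34.8 to 49.2 in ex vivo CLP, and the genes behind them did not move together. The deposited values of Cd79b were 35, 1, 2 and 4 in cCLP 1 to 4, against 32, 7, 30 and 43 in ex vivo CLP 1 to 4. Those of Cd79a were 0, 7, 7 and 16 in cCLP, against 1, 27, 1 and 1 in ex vivo CLP, and those of Ebf1 were 1, 7, 6 and 9 in cCLP, against 1, 8, 0 and 0 in ex vivo CLP. Cd79a and Ebf1 were thus higher in cCLP 2 to 4 than in ex vivo CLP 1, 3 and 4, and Cd79b was lower. T and natural killer markers summed to at most 2.86 in any cCLP library and 4.96 in any ex vivo CLP library, with Cd3e, Cd8a, Bcl11b and Ncr1 listed at 0 in all 8. Among 10 stromal markers, 8 were listed at 0 in every library, Col1a1, Col3a1, Dcn and Cxcl12 among them, and the sums lay between 3.88 and 13.4 in cCLP, against 4.47 to 14.5 in ex vivo CLP. The part of these cells in the mitotic gene differences was not tested. In bulk RNA, fewer dividing cells and less mitotic RNA per dividing cell cannot be told apart.

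The deposited values of the 60 mitotic genes made up 0.413% to 0.451% of the summed values in cCLP 2, 3 and 4. In ex vivo CLP 1, 3 and 4 they made up 0.633% to 0.66%. These are shares of values on an unnamed scale, and not of RNA. The libraries labelled cCLP 1 and ex vivo CLP 2 stood at 0.637% and 0.476%. Within the cultured group, cCLP 2 held the lowest of the values of cCLP 2 to 4 for 52 genes. Within ex vivo CLP 1, 3 and 4 the lowest value fell in library 1 for 31 genes, in library 3 for 19 and in library 4 for 10. The median coefficient of variation of a mitotic gene was 11.1% over cCLP 2 to 4 and 12.6% over ex vivo CLP 1, 3 and 4.

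**Figure D1:**
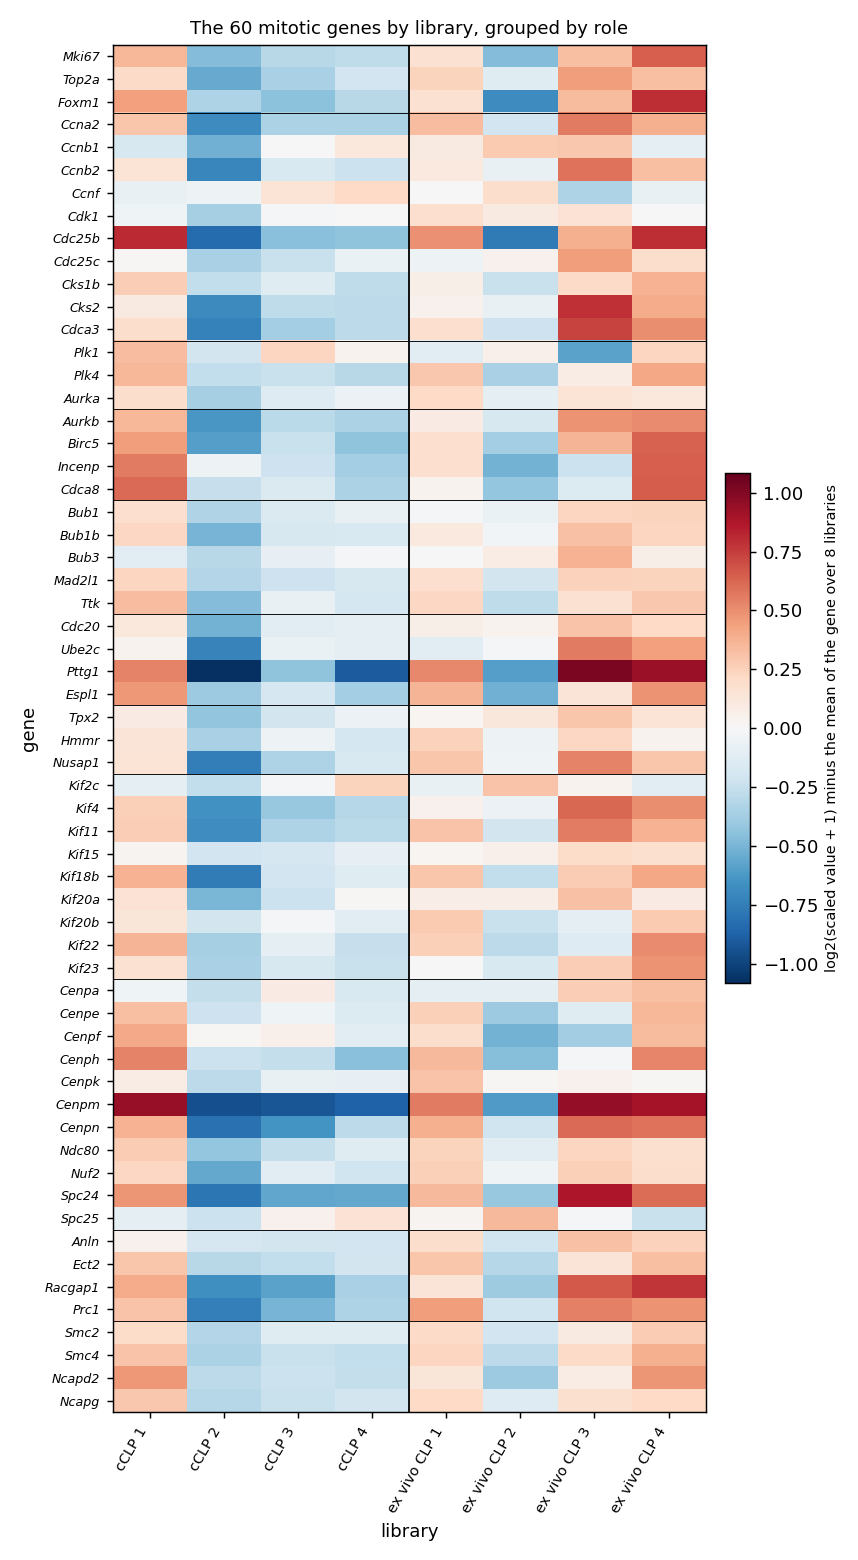
Level of each of the 60 mitotic genes (rows, grouped by role) in each of the 8 libraries (columns, cCLP on the left), as log2(scaled value + 1) minus the gene's mean over the 8 libraries. Red is above and blue below that mean. The columns of cCLP 2, 3 and 4 and of ex vivo CLP 2 are mostly blue, and those of cCLP 1 and ex vivo CLP 1, 3 and 4 mostly red.

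Over all 8 libraries no mitotic gene was called. Of the 60 genes, 58 were tested, since Pttg1 and Cenpf did not reach the minimum in enough libraries. The fit called 0% of all 6539 genes tested in either direction, with a smallest adjusted p of 0.482. At an unadjusted p below 0.05, 13 of the 58 passed, all of them lower in cCLP, where 7.55% of all genes tested passed. The direction was shared by most of the 58: 56 had a log2 fold change below 0, against 49.6% of all genes tested. Their median log2 fold change was -0.27, where that of all genes tested was 0.00. Only Bub3 had all 4 cCLP libraries below all 4 ex vivo CLP libraries, where 1.7% of all genes tested did, and no mitotic gene had all 4 above, where 1.76% did. For 44 of the 58 genes the 95% interval lay within a 2-fold difference either way, as it did for 5316 of all 6539 genes tested.

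Over the 6 libraries, 44 of the 58 mitotic genes tested were lower in cCLP, none was higher and 14 were not called. In the same fit 23% of the 6622 genes tested were lower and 20% higher. The median log2 fold change of the 58 was -0.51, against -0.01 for all genes tested, and the values ranged between -1.75 for Cenpm and 0.21 for Ccnf. All 3 cCLP libraries lay below all 3 ex vivo CLP libraries for 46 of the 58 genes, where 27.8% of all genes tested did so, and for no mitotic gene did they lie above, where 28.1% did. Of the 44, Foxm1, Cdc25b, Plk4 and Espl1 reached the minimum only in ex vivo CLP, so their direction was fixed by the filter. Without them 40 of 54 genes were lower, with a median of -0.49. Cenpm is among these 40, but of its cCLP 2 to 4 values only that of library 4 reached the minimum. It therefore passed the filter through ex vivo CLP as well. The calls of 33 genes held without each of the 6 libraries in turn.

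**Figure D2:**
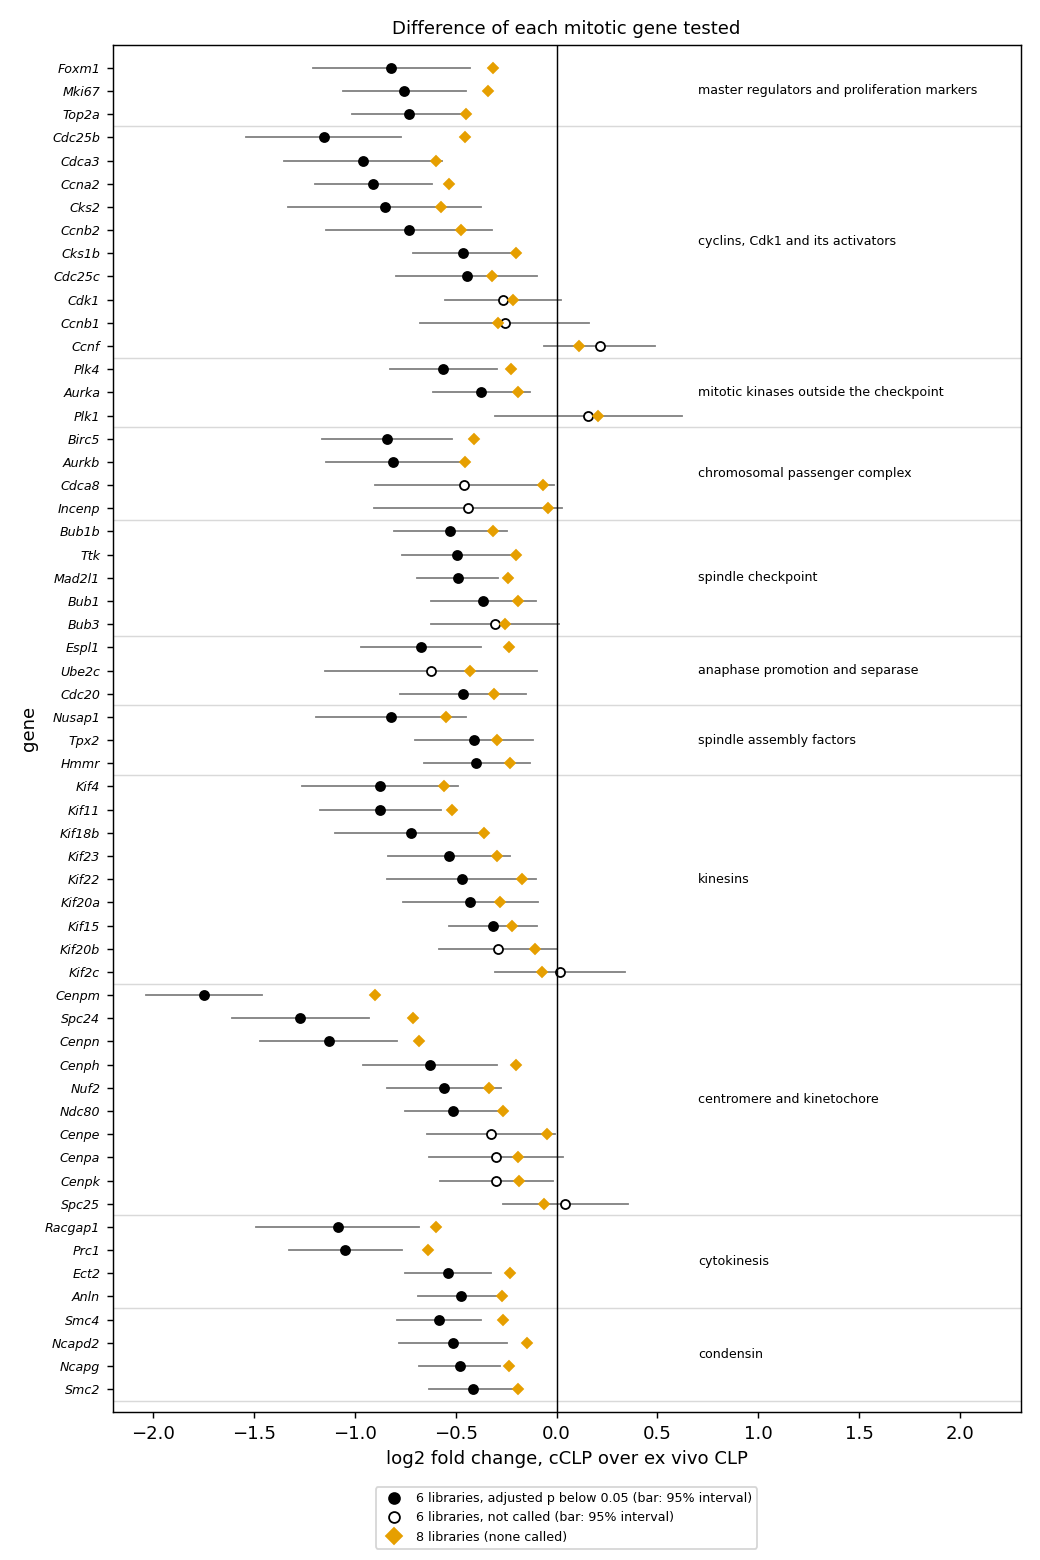
Log2 fold change, cCLP over ex vivo CLP, of each of the 58 mitotic genes tested, grouped by role. Circles are the fit over 6 libraries with its 95% interval, filled where the adjusted p is below 0.05, and diamonds are the fit over all 8 libraries. The circles lie between -1.75 (Cenpm) and 0.21 (Ccnf), and 44 of them are filled, all on the lower side.

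Promoters of these genes share sequence elements that the choice of genes did not use. The CHR, the element bound by the MuvB complexes, has the sequences TTTGAA or TTTAAA, and CCAAT is the element of the factor NF-Y. RefSeq promoters (GRCm38.p6, 250 bases before to 50 after the start that RefSeq gives) were available for 51 of the 60 genes and searched on both strands. TTTGAA occurred in 72.5% of them, where 20.2% of the promoters of all 27025 genes in the table held it, and TTTAAA in 19.6%, against 14.9%. CCAAT occurred in 78.4%, against 41.1% of all promoters. CCAAT together with at least 1 of both hexamers was found in 66.7%, against 12.2%. A match is a description of the letters and not of a bound site.

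The elements were not confined to the genes that were called. At least 1 of both hexamers was present in 77.8% of 36 promoters of genes lower over the 6 libraries and in 92.3% of 13 promoters of genes not called, and CCAAT in 77.8% and 84.6%. Promoters of 4 genes are shown because they span the range of responses: Cenpm had the largest difference, Top2a and Ccnb2 were lower, and Plk1 was not called. The sequences read 5′ to 3′ along the gene's strand, with every match to a hexamer or to CCAAT in capitals. A match on the opposite strand reads TTCAAA for the first hexamer and ATTGG for the CCAAT element. No match overlaps another in these 4.
Cenpm chr15:82244287-82244586 (minus strand): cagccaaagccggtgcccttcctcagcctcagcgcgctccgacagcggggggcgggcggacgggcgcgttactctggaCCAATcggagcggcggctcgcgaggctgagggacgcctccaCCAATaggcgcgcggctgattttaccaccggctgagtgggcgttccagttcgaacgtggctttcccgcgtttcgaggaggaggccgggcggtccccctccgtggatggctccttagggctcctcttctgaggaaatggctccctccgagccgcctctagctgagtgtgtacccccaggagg
Top2a chr11:99024140-99024439 (minus strand): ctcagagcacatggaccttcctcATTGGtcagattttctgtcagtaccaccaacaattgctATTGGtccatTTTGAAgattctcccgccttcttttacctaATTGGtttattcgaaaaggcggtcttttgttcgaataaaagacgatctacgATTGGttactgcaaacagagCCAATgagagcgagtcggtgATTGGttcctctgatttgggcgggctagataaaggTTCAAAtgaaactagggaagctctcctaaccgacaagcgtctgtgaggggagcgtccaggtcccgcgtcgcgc
Ccnb2 chr9:70421505-70421804 (minus strand): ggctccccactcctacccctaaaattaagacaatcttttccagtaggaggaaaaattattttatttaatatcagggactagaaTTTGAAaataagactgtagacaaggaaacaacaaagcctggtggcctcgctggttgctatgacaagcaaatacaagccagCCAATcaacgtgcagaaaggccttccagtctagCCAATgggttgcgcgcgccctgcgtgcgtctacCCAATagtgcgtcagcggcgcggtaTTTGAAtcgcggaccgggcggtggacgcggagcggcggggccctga
Plk1 chr7:122159185-122159484 (plus strand): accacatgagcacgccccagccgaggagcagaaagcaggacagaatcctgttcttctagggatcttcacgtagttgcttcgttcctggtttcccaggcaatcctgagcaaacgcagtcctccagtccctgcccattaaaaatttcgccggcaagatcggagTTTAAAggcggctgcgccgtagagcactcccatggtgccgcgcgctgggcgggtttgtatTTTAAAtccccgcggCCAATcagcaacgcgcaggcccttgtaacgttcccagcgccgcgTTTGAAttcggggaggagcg
Cenpm held 2 CCAAT boxes and neither hexamer, and Plk1 held all of the elements. The Cenpm stretch lies wholly inside the gene as GENCODE vM21 places it (chr15:82233779-82244748). It does not flank that start, whose surrounding bases were not searched.

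Both general markers of proliferation that reached the minimum in both groups, Mki67 and Top2a, were lower in cCLP over the 6 libraries. Mki67, the nuclear protein that coats mitotic chromosomes and defines the Ki-67 index, stood at scaled values of 108, 60.3, 67.9 and 69.1 in cCLP 1 to 4, against 94.2, 60.3, 105 and 132 in ex vivo CLP 1 to 4. Libraries cCLP 2 to 4 lay below ex vivo CLP 1, 3 and 4, and the library labelled ex vivo CLP 2 stood level with cCLP 2. Over the 6 libraries its log2 fold change was -0.76 ± 0.13 (adjusted p = 0.00271), lower in cCLP. For Top2a, the topoisomerase that untangles sister chromatids and whose promoter is printed above, the scaled values were 180.4, 107, 122 and 136 in cCLP 1 to 4, against 185, 143, 214 and 196 in ex vivo CLP 1 to 4. The library labelled cCLP 1 was close to ex vivo CLP 1, and that labelled ex vivo CLP 2 close to cCLP 4. The log2 fold change of Top2a over the 6 libraries was -0.73 ± 0.12 (adjusted p = 0.0021), lower in cCLP. Foxm1, the transcription factor that activates late cell cycle genes, had scaled values of 13.4, 7.40, 6.79 and 7.58 in cCLP 1 to 4, against 10.9, 5.59, 12.4 and 17.4 in ex vivo CLP 1 to 4. The library labelled cCLP 1 lay with ex vivo CLP, and ex vivo CLP 2 was the lowest of all 8. It was lower in cCLP over the 6 libraries by a log2 fold change of -0.82 ± 0.17 (adjusted p = 0.00578). Foxm1 reached a scaled value of 10 in cCLP only in library 1, so its direction over the 6 libraries was fixed by the filter and is given as a description.

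**Figure D3:**
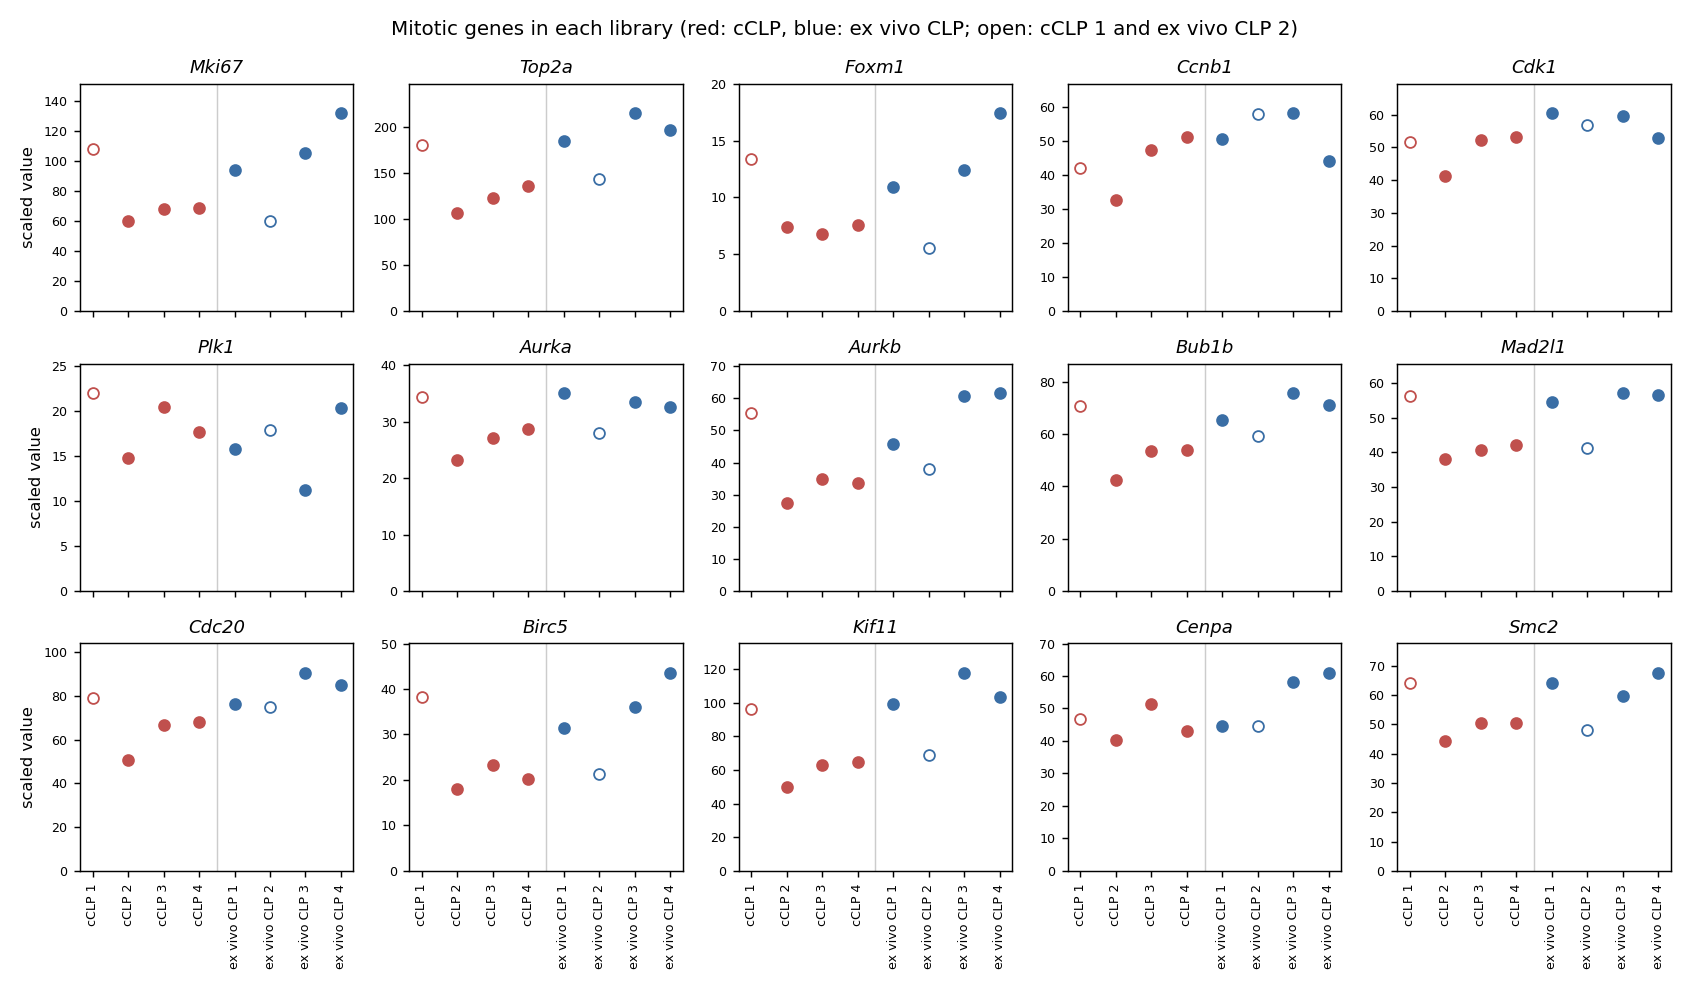
Scaled value (vertical axis, from 0) of 15 mitotic genes in each of the 8 libraries (horizontal axis, cCLP on the left of each panel). Filled circles are the 6 libraries of the second comparison, and open circles are the libraries labelled cCLP 1 and ex vivo CLP 2. In 11 panels (Mki67, Top2a, Foxm1, Aurka, Aurkb, Bub1b, Mad2l1, Cdc20, Birc5, Kif11 and Smc2) all filled cCLP circles lie below all filled ex vivo CLP circles, while in those of Ccnb1, Cdk1, Plk1 and Cenpa they overlap.

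Among the cyclins, Cdk1 and its activators, 7 of 10 genes were lower over the 6 libraries, where 23% of all genes tested were. Without Cdc25b, whose direction the filter fixed, 6 of 9 were lower. The kinase itself and cyclin B1 were not called. Cdk1, the kinase that drives entry into mitosis, stood at scaled values of 51.5, 41.2, 52.4 and 53.1 in cCLP 1 to 4, against 60.4, 57.0, 59.5 and 52.9 in ex vivo CLP 1 to 4. Cdk1 was not called over the 6 libraries (log2 fold change -0.27 ± 0.12, 95% interval -0.55 to 0.02, adjusted p = 0.121). The groups overlapped, with cCLP 4 above ex vivo CLP 4. For Ccnb1, the main mitotic cyclin, the scaled values were 42.0, 32.8, 47.5 and 51.4 in cCLP 1 to 4, against 50.7, 58.1, 58.3 and 44.2 in ex vivo CLP 1 to 4. The groups overlapped, cCLP 3 and 4 lying on either side of ex vivo CLP 1. Its log2 fold change over the 6 libraries, -0.26 ± 0.18 (adjusted p = 0.291), was not called. Its reads may be shared with 4 near-identical copies elsewhere in the genome, so its values are uncertain. Ccna2, the A-type cyclin of S phase and early mitosis, averaged 58.6 ± 7.75 in cCLP and 109 ± 9.23 in ex vivo CLP. Ccna2 differed by a log2 fold change of -0.91 ± 0.13 over the 6 libraries (adjusted p = 0.000841), lower in cCLP. Ccnb2, the second B-type cyclin, had scaled values of 123, 67.7, 98.9 and 94.3 in cCLP 1 to 4, against 119.6, 105, 167 and 139 in ex vivo CLP 1 to 4. Of the 8, cCLP 2 to 4 were the 3 lowest. With cCLP 1 and ex vivo CLP 2 left out, Ccnb2 was lower in cCLP by a log2 fold change of -0.73 ± 0.18 (adjusted p = 0.0122).

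Cdc25b, a phosphatase that activates Cdk1, stood at scaled values of 15.3, 4.23, 5.82 and 5.90 in cCLP 1 to 4, against 12.1, 4.47, 11.2 and 15.2 in ex vivo CLP 1 to 4. Those of cCLP 2 to 4 were all below 6, and the library labelled cCLP 1 was the highest of the 8. Cdc25b was lower in cCLP over the 6 libraries, with a log2 fold change of -1.16 ± 0.17 (adjusted p = 0.00105). It passed the filter through ex vivo CLP alone, so this direction is a description. Cdc25c, a phosphatase of the same family, averaged 12.9 ± 1.36 in cCLP and 17.7 ± 3.29 in ex vivo CLP. Over the 6 libraries its log2 fold change was -0.44 ± 0.15 (adjusted p = 0.0454), lower in cCLP. Cks2, a small protein that binds Cdk1, averaged 171 ± 27.2 in cCLP and 308 ± 79.6 in ex vivo CLP, log2 fold change -0.85 ± 0.21, adjusted p = 0.0122. Its homologue Cks1b averaged 97.1 ± 5.77 in cCLP and 132 ± 14.4 in ex vivo CLP, log2 fold change -0.47 ± 0.11, adjusted p = 0.0099. Cdca3, a target of the anaphase-promoting complex that promotes entry into mitosis, averaged 28.4 ± 4.60 in cCLP and 55.4 ± 10.5 in ex vivo CLP, log2 fold change -0.96 ± 0.17, adjusted p = 0.00287. For Ccnf, cyclin F, a ubiquitin ligase subunit that binds no Cdk, the scaled values were 23.9, 24.3, 28.1 and 29.5 in cCLP 1 to 4, against 25.4, 29.0, 19.8 and 23.9 in ex vivo CLP 1 to 4. The groups overlapped, with cCLP 4 the highest and ex vivo CLP 3 the lowest. Ccnf was not called over the 6 libraries (log2 fold change 0.21 ± 0.12, 95% interval -0.06 to 0.49, adjusted p = 0.191). It was the only gene of the role with a positive value. The call of Cdc25c did not hold without cCLP 2, 3 or 4 or ex vivo CLP 3 or 4 (adjusted p between 0.0659 and 0.141), and that of Cks1b did not hold without cCLP 4 (adjusted p = 0.0562).

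Of the mitotic kinases outside the checkpoint, Aurka was lower and Plk1 was not called, while Plk4 passed the filter only through ex vivo CLP. Plk1, the Polo-like kinase that acts at centrosomes, kinetochores and the midzone, had scaled values of 22, 14.8, 20.4 and 17.7 in cCLP 1 to 4, against 15.7, 17.9, 11.2 and 20.3 in ex vivo CLP 1 to 4. Its log2 fold change over the 6 libraries, 0.16 ± 0.20 (adjusted p = 0.559), was not called. The groups overlapped, ex vivo CLP 3 was the lowest of all 8 libraries, and without it the log2 fold change was -0.045. Plk4, the kinase that starts centriole duplication, stood at scaled values of 15.3, 9.52, 9.70 and 9.27 in cCLP 1 to 4, against 14.5, 8.94, 12.4 and 15.9 in ex vivo CLP 1 to 4. Libraries cCLP 2 to 4 stood just under 10, and the library labelled ex vivo CLP 2 below them. The log2 fold change of Plk4 over the 6 libraries was -0.56 ± 0.11 (adjusted p = 0.00554), lower in cCLP. It reached 10 in cCLP only in library 1, so its direction was fixed by the filter. For Aurka, the Aurora kinase of the spindle poles, the scaled values were 34.4, 23.3, 27.2 and 28.6 in cCLP 1 to 4, against 35, 27.9, 33.5 and 32.6 in ex vivo CLP 1 to 4. The 3 lowest were cCLP 2 and 3 and the library labelled ex vivo CLP 2. It was lower in cCLP over the 6 libraries by a log2 fold change of -0.37 ± 0.10 (adjusted p = 0.0213). That call did not hold without cCLP 2 (adjusted p = 0.089) or cCLP 3 (adjusted p = 0.0562), nor under scaling by the library total (adjusted p = 0.0629).

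The chromosomal passenger complex corrects faulty attachments and later guides cytokinesis. Its kinase Aurkb and its subunit Birc5 were lower over the 6 libraries, where 23% of all genes tested were. Incenp and Cdca8 were not called, but their log2 fold changes were also below 0. Their 95% intervals overlapped those of Aurkb and Birc5. Aurkb had scaled values of 55.4, 27.5, 34.9 and 33.7 in cCLP 1 to 4, against 45.9, 38.0, 60.7 and 61.6 in ex vivo CLP 1 to 4. The 3 lowest were cCLP 2, 3 and 4, and the library labelled ex vivo CLP 2 came next. Aurkb differed by a log2 fold change of -0.81 ± 0.14 over the 6 libraries (adjusted p = 0.00291), lower in cCLP. Birc5, the subunit survivin that brings the complex to centromeres, stood at scaled values of 38.2, 18.0, 23.3 and 20.2 in cCLP 1 to 4, against 31.4, 21.2, 35.9 and 43.5 in ex vivo CLP 1 to 4. Of the ex vivo CLP libraries, number 2 alone lay within the range of cCLP 2 to 4. With cCLP 1 and ex vivo CLP 2 left out, Birc5 was lower in cCLP by a log2 fold change of -0.84 ± 0.14 (adjusted p = 0.0021). For Incenp, the scaffold of the complex, the scaled values were 45.8, 29.6, 26.2 and 23.6 in cCLP 1 to 4, against 35, 21.2, 26.0 and 48.6 in ex vivo CLP 1 to 4. Incenp was not called over the 6 libraries (log2 fold change -0.44 ± 0.20, 95% interval -0.90 to 0.03, adjusted p = 0.116). Its values spread more in ex vivo CLP, where library 3 stood beside cCLP 3 and library 4 was the highest of all 8. Cdca8, the subunit borealin, had scaled values of 23.9, 12.7, 13.6 and 11.8 in cCLP 1 to 4, against 15.7, 11.2, 13.6 and 24.6 in ex vivo CLP 1 to 4. The values of cCLP 3 and ex vivo CLP 3 were nearly equal. Its log2 fold change over the 6 libraries, -0.46 ± 0.19 (adjusted p = 0.0892), was not called. Without ex vivo CLP 3, Incenp and Cdca8 passed the threshold as well (adjusted p = 0.0182 and 0.034).

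Spindle checkpoint genes were lower in 4 of 5 cases over the 6 libraries, where 23% of all genes tested were. The amounts were similar: the log2 fold changes of the 5 ranged between -0.53 and -0.31. Bub1b, which encodes BubR1, a part of the complex that inhibits the anaphase-promoting complex, stood at scaled values of 70.6, 42.3, 53.3 and 53.9 in cCLP 1 to 4, against 65.2, 59.2, 75.6 and 71.0 in ex vivo CLP 1 to 4. Each of cCLP 2 to 4 was below every ex vivo CLP library. Bub1b was lower in cCLP over the 6 libraries, with a log2 fold change of -0.53 ± 0.12 (adjusted p = 0.00975). For Mad2l1, which encodes the checkpoint protein Mad2, the scaled values were 56.3, 38.1, 40.7 and 42.1 in cCLP 1 to 4, against 54.4, 41.3, 57.0 and 56.5 in ex vivo CLP 1 to 4. Levels were close within each set of 3: 40.3 ± 2.06 in cCLP and 56.0 ± 1.41 in ex vivo CLP. Over the 6 libraries its log2 fold change was -0.49 ± 0.09 (adjusted p = 0.00287), lower in cCLP. Its reads may be shared with the copy Gm42430, and its values are uncertain to that extent. Ttk, the kinase Mps1 that starts checkpoint signalling, averaged 13.8 ± 1.99 in cCLP and 19.4 ± 0.856 in ex vivo CLP, log2 fold change -0.49 ± 0.12, adjusted p = 0.0114. Bub1, the kinase that recruits the other checkpoint proteins, averaged 25.7 ± 2.3 in cCLP and 32.8 ± 3.32 in ex vivo CLP, log2 fold change -0.36 ± 0.11, adjusted p = 0.0328. The call of Bub1 did not hold without cCLP 2, 3 or 4 or ex vivo CLP 3 or 4 (adjusted p between 0.0597 and 0.123).

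Bub3, the protein that carries Bub1 and BubR1 to the kinetochore, had scaled values of 114, 99.4, 115 and 121 in cCLP 1 to 4, against 122, 129.6, 159.9 and 128 in ex vivo CLP 1 to 4. Every cCLP library lay below every ex vivo CLP library, also with all 8. Bub3 was not called over the 6 libraries (log2 fold change -0.31 ± 0.14, 95% interval -0.62 to 0.01, adjusted p = 0.109). Over all 8 libraries its log2 fold change was -0.26 ± 0.11. Bub3 was thus not called in either comparison. It was the 1 of the 58 mitotic genes tested whose labelled groups did not overlap over all 8 libraries. Of all genes tested 1.7% had all cCLP libraries below all ex vivo CLP libraries, so this does not set Bub3 apart.

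The genes that trigger anaphase had few tested members. Cdc20, the activator of the anaphase-promoting complex that the checkpoint restrains, stood at scaled values of 79.2, 50.7, 66.9 and 68.2 in cCLP 1 to 4, against 76.1, 74.9, 90.5 and 84.8 in ex vivo CLP 1 to 4. All of cCLP 2 to 4 lay below the 4 ex vivo CLP libraries, and cCLP 1 among these. The log2 fold change of Cdc20 over the 6 libraries was -0.47 ± 0.14 (adjusted p = 0.0258), lower in cCLP. That call did not hold without cCLP 2 or 3 or ex vivo CLP 3 or 4 (adjusted p between 0.0502 and 0.0823). Ube2c, the ubiquitin-conjugating enzyme of the complex, averaged 33.7 ± 8.12 in cCLP and 51.3 ± 12.3 in ex vivo CLP. Its log2 fold change over the 6 libraries, -0.62 ± 0.23 (adjusted p = 0.0584), was not called. Without ex vivo CLP 1 its adjusted p was 0.014, and under scaling by the library total it was 0.0364. For Espl1, separase, the scaled values were 14.3, 7.40, 8.73 and 7.58 in cCLP 1 to 4, against 13.3, 6.70, 11.2 and 14.5 in ex vivo CLP 1 to 4. The 4 libraries below 10 were cCLP 2 to 4 and ex vivo CLP 2. It was lower in cCLP over the 6 libraries by a log2 fold change of -0.67 ± 0.13 (adjusted p = 0.00409), a direction that the filter fixed. Pttg1, securin, the inhibitor of separase, had scaled values of 8.59, 2.11, 3.88 and 2.53 in cCLP 1 to 4, against 8.46, 3.35, 12.4 and 11.6 in ex vivo CLP 1 to 4. Only ex vivo CLP 3 and 4 reached 10, so it was not tested.

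All 3 spindle assembly factors were lower over the 6 libraries, where 23% of all genes tested were. Nusap1, which bundles microtubules around chromosomes, stood at scaled values of 64.0, 33.8, 45.6 and 51.4 in cCLP 1 to 4, against 71.3, 55.9, 84.3 and 71.0 in ex vivo CLP 1 to 4. The 3 lowest of the 8 were cCLP 2 to 4. Nusap1 differed by a log2 fold change of -0.82 ± 0.16 over the 6 libraries (adjusted p = 0.00456), lower in cCLP. For Hmmr, a protein of the spindle poles, the scaled values were 25.8, 18.0, 22.3 and 20.2 in cCLP 1 to 4, against 27.8, 22.3, 27.3 and 23.9 in ex vivo CLP 1 to 4. Libraries cCLP 2 to 4 lay below ex vivo CLP 1, 3 and 4, with cCLP 3 level with ex vivo CLP 2. With cCLP 1 and ex vivo CLP 2 left out, Hmmr was lower in cCLP by a log2 fold change of -0.40 ± 0.11 (adjusted p = 0.0241). Its call did not hold without cCLP 2 or 4 or ex vivo CLP 3 (adjusted p between 0.0586 and 0.0963), nor under scaling by the library total (adjusted p = 0.0653). Tpx2, the activator of Aurora A on the spindle, averaged 42.9 ± 5.55 in cCLP and 56.2 ± 5.62 in ex vivo CLP, log2 fold change -0.41 ± 0.13, adjusted p = 0.0315. It lost its call without cCLP 2 or 3 or ex vivo CLP 3 or 4 (adjusted p between 0.0716 and 0.114).

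Kinesins are motor proteins that move along microtubules. Over the 6 libraries 7 of the 9 tested were lower, where 23% of all genes tested were. Kif4, a chromosome-bound kinesin that shapes the midzone, had scaled values of 26.7, 13.7, 16.5 and 17.7 in cCLP 1 to 4, against 23.0, 21.2, 34.7 and 31.9 in ex vivo CLP 1 to 4. Libraries cCLP 2 to 4 were the 3 lowest of the 8. Kif4 was lower in cCLP over the 6 libraries, with a log2 fold change of -0.87 ± 0.17 (adjusted p = 0.0041). Kif11, the kinesin Eg5 that pushes the spindle poles apart, stood at scaled values of 96.4, 49.7, 63.0 and 64.9 in cCLP 1 to 4, against 99.1, 69.3, 118 and 104 in ex vivo CLP 1 to 4. The cCLP 2 to 4 libraries and ex vivo CLP 2 were the 4 lowest. Over the 6 libraries its log2 fold change was -0.87 ± 0.13 (adjusted p = 0.00123), lower in cCLP. Kif18b, which controls the length of astral microtubules, averaged 15.9 ± 3.71 in cCLP and 25.9 ± 1.45 in ex vivo CLP, log2 fold change -0.72 ± 0.16, adjusted p = 0.00903. Kif23, the motor of the centralspindlin complex of cytokinesis, averaged 57.7 ± 3.61 in cCLP and 83.0 ± 14.1 in ex vivo CLP, log2 fold change -0.53 ± 0.13, adjusted p = 0.013. Its call did not hold without cCLP 2 (adjusted p = 0.0507) or cCLP 4 (adjusted p = 0.0522).

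The other kinesins changed less or were not called. Kif22, which pushes chromosome arms from the poles, averaged 25.6 ± 2.45 in cCLP and 35.7 ± 8.13 in ex vivo CLP, log2 fold change -0.47 ± 0.16, adjusted p = 0.0445, although its groups overlapped. Kif20a, a motor needed for cytokinesis, averaged 37.1 ± 6.58 in cCLP and 48.9 ± 4.84 in ex vivo CLP, log2 fold change -0.43 ± 0.14, adjusted p = 0.0444. Kif15, a motor that helps hold the spindle bipolar, averaged 38.4 ± 1.79 in cCLP and 47.2 ± 3.26 in ex vivo CLP, log2 fold change -0.32 ± 0.10, adjusted p = 0.029. These 3 calls each depended on single libraries. Kif22 lost its call without cCLP 2, 3 or 4 or ex vivo CLP 1 or 4 (adjusted p between 0.0689 and 0.134). Kif20a lost it without cCLP 2 or 3 or any of ex vivo CLP 1, 3 and 4 (adjusted p between 0.0514 and 0.148), and Kif15 without cCLP 2, 3 or 4 or ex vivo CLP 3 or 4 (adjusted p between 0.0636 and 0.111). Kif22 and Kif15 also lost it under scaling by the library total (adjusted p = 0.124 and 0.0517), and Kif22 under upper quartile scaling (adjusted p = 0.0618). Kif20b, a kinesin of late cytokinesis, averaged 13.6 ± 0.935 in cCLP and 16.6 ± 2.59 in ex vivo CLP, log2 fold change -0.29 ± 0.13, adjusted p = 0.101, not called. For Kif2c, the kinesin MCAK that removes tubulin at faulty attachments, the scaled values were 19.1, 16.9, 20.4 and 24.4 in cCLP 1 to 4, against 19.3, 25.7, 21.1 and 18.8 in ex vivo CLP 1 to 4. The groups overlapped, with the library labelled ex vivo CLP 2 the highest and cCLP 2 the lowest. Kif2c was not called over the 6 libraries (log2 fold change 0.02 ± 0.14, 95% interval -0.30 to 0.34, adjusted p = 0.929). It held the value nearest to 0 among the 58 genes, below 0 over all 8 libraries (-0.07 ± 0.14), and also without cCLP 4 (-0.108) or ex vivo CLP 4 (-0.018).

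Centromere and kinetochore genes ranged the most widely of all roles, with both the largest difference and a gene close to 0 among them. Over the 6 libraries 6 of 10 tested were lower, where 23% of all genes tested were. Cenpm (ENSMUSG00000068101, chr15:82233779-82244748 on GRCm38), a subunit of the inner kinetochore whose promoter is printed above, had scaled values of 38.2, 9.52, 9.70 and 10.1 in cCLP 1 to 4, against 29.0, 12.3, 38.4 and 37.0 in ex vivo CLP 1 to 4. Those of cCLP 2 to 4 stayed near 10, and the library labelled cCLP 1 matched ex vivo CLP 3 and 4. Of cCLP 2 to 4 only library 4 reached 10, so Cenpm passed the filter through ex vivo CLP and its direction is a description. The log2 fold change of Cenpm over the 6 libraries was -1.75 ± 0.12 (adjusted p = 2.23e-05), lower in cCLP. As a ratio on the scale of log2(scaled value + 1), that is 0.298 of the ex vivo CLP level. Over all 8 libraries its log2 fold change was -0.90 ± 0.51 and was not called. Cenpn, the subunit that reads the centromeric nucleosome, averaged 16.5 ± 3.35 in cCLP and 36.2 ± 3.16 in ex vivo CLP, log2 fold change -1.13 ± 0.15, adjusted p = 0.000611. Cenph, another subunit of the inner kinetochore, averaged 15 ± 1.29 in cCLP and 23.4 ± 4.52 in ex vivo CLP, log2 fold change -0.63 ± 0.14, adjusted p = 0.00965. Cenpk, which sits in one subcomplex with Cenph and Cenpm, averaged 12.9 ± 1.10 in cCLP and 15.8 ± 1.99 in ex vivo CLP, log2 fold change -0.30 ± 0.12, adjusted p = 0.0822, not called.

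The outer kinetochore complex NDC80, which grips the microtubule, has 4 subunits that are all among the 60 genes. Its microtubule-binding pair was lower by nearly equal amounts. Ndc80 averaged 26.0 ± 2.69 in cCLP and 36.7 ± 1.05 in ex vivo CLP, log2 fold change -0.51 ± 0.10, adjusted p = 0.00529. Nuf2 averaged 32.0 ± 4.95 in cCLP and 46.4 ± 1.25 in ex vivo CLP, log2 fold change -0.56 ± 0.12, adjusted p = 0.00788. The pair that anchors the complex to the inner kinetochore was unequal. Spc24 (ENSMUSG00000074476, chr9:21755442-21760303) stood at scaled values of 64.9, 26.4, 31.0 and 31.2 in cCLP 1 to 4, against 59.2, 34.6, 85.5 and 71.0 in ex vivo CLP 1 to 4. The 3 lowest were cCLP 2 to 4, and the library labelled ex vivo CLP 2 came next. It was lower in cCLP over the 6 libraries by a log2 fold change of -1.27 ± 0.15 (adjusted p = 0.000325). For Spc25 (ENSMUSG00000005233, chr2:69193895-69206194) the scaled values were 21.0, 19.0, 23.3 and 25.3 in cCLP 1 to 4, against 23.0, 29.0, 22.3 and 18.8 in ex vivo CLP 1 to 4. Its log2 fold change over the 6 libraries, 0.04 ± 0.13 (adjusted p = 0.818), was not called. The groups of Spc25 overlapped, with ex vivo CLP 2 the highest and ex vivo CLP 4 the lowest of all 8 libraries. Its sign was below 0 over all 8 libraries (-0.06 ± 0.14), and without cCLP 4 (-0.041) or ex vivo CLP 4 (-0.045).

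Cenpa, the histone H3 variant that marks the centromere, had scaled values of 46.8, 40.2, 51.4 and 43.0 in cCLP 1 to 4, against 44.7, 44.7, 58.3 and 60.9 in ex vivo CLP 1 to 4. The groups overlapped, with cCLP 3 above ex vivo CLP 1 and 2. Cenpa was not called over the 6 libraries (log2 fold change -0.30 ± 0.14, 95% interval -0.63 to 0.03, adjusted p = 0.13). With ex vivo CLP 1 left out, its adjusted p was 0.022. Cenpe, the kinesin of the kinetochore, averaged 13.6 ± 0.935 in cCLP and 17.1 ± 3.10 in ex vivo CLP, log2 fold change -0.33 ± 0.14, adjusted p = 0.0891, not called. With ex vivo CLP 3 left out, the adjusted p of Cenpe was 0.0139 and that of Kif20b 0.0208. Cenpf, a large protein of the outer kinetochore, stood at scaled values of 11.5, 8.46, 8.73 and 7.58 in cCLP 1 to 4, against 9.67, 5.59, 6.20 and 10.9 in ex vivo CLP 1 to 4. It was not tested. Only the libraries cCLP 1 and ex vivo CLP 4 were above 10.

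Cytokinesis genes were lower in 4 of 4 cases over the 6 libraries, where 23% of all genes tested were. Whether the roles differ from each other was not tested. For Racgap1, the GTPase-activating partner of Kif23 in centralspindlin, the scaled values were 27.7, 12.7, 13.6 and 16.0 in cCLP 1 to 4, against 23.0, 15.6, 33.5 and 36.2 in ex vivo CLP 1 to 4. The library labelled ex vivo CLP 2 lay within the range of cCLP 2 to 4. Racgap1 differed by a log2 fold change of -1.09 ± 0.17 over the 6 libraries (adjusted p = 0.0018), lower in cCLP. Prc1, which bundles the microtubules of the midzone, averaged 12.5 ± 1.88 in cCLP and 26.2 ± 0.955 in ex vivo CLP, log2 fold change -1.05 ± 0.12, adjusted p = 0.000321. Ect2, the exchange factor that activates RhoA at the cleavage furrow, averaged 18.6 ± 0.715 in cCLP and 26.9 ± 1.89 in ex vivo CLP, log2 fold change -0.54 ± 0.09, adjusted p = 0.00242. Anln, anillin, a scaffold of the contractile ring, had scaled values of 16.2, 13.7, 13.6 and 13.5 in cCLP 1 to 4, against 18.1, 13.4, 19.8 and 18.8 in ex vivo CLP 1 to 4. The library labelled ex vivo CLP 2 stood just below cCLP 2 to 4. With cCLP 1 and ex vivo CLP 2 left out, Anln was lower in cCLP by a log2 fold change of -0.47 ± 0.09 (adjusted p = 0.00445).

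The condensin genes, whose products fold chromatin into compact mitotic chromosomes, were lower in 4 of 4 cases and within a narrow range. Of all genes tested 23% were lower over the 6 libraries. Smc4, an ATPase of both condensin complexes, stood at scaled values of 98.3, 62.4, 66.9 and 65.7 in cCLP 1 to 4, against 93.0, 64.8, 91.7 and 104 in ex vivo CLP 1 to 4. The library labelled ex vivo CLP 2 lay within the range of cCLP 2 to 4, and cCLP 1 within that of ex vivo CLP 1, 3 and 4. Smc4 was lower in cCLP over the 6 libraries, with a log2 fold change of -0.58 ± 0.09 (adjusted p = 0.00144). For Smc2, its partner ATPase, the scaled values were 64.0, 44.4, 50.4 and 50.5 in cCLP 1 to 4, against 64.0, 48.0, 59.5 and 67.4 in ex vivo CLP 1 to 4. The sets divided in the same way, with the library labelled cCLP 1 at the level of ex vivo CLP 1. Over the 6 libraries its log2 fold change was -0.41 ± 0.10 (adjusted p = 0.00955), lower in cCLP. Ncapd2, a subunit of condensin I, averaged 77.4 ± 1.23 in cCLP and 109.7 ± 17.4 in ex vivo CLP, log2 fold change -0.51 ± 0.12, adjusted p = 0.0093. Ncapg, another subunit of condensin I, averaged 15.4 ± 0.606 in cCLP and 21.5 ± 0.392 in ex vivo CLP, log2 fold change -0.48 ± 0.09, adjusted p = 0.00323. All 4 kept their calls without each of the 6 libraries in turn. Smc2 lost its call in the fit with the replicate number as a block (adjusted p = 0.138).

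Subunits of one complex and members of one family were set against each other in 22 pairs, which were chosen after the values had been seen. The size of a ratio carries no meaning on this scale, and only its difference between libraries does. An exact two-sided permutation test of 3 against 3 libraries cannot give a p below 0.1, so no pair could pass over the 6 libraries. The groups did not overlap for 10 of the 22 pairs over the 6 libraries (each exact p = 0.1, adjusted p = 0.22) and for 1 over the 8. These are 45.5% and 4.55% of the pairs, where the groups did not overlap for 55.9% of all single genes tested over the 6 libraries and 3.46% over the 8. Pairs without overlap were therefore no more frequent over the 6 libraries than single genes, and each ratio below is a description. Without the 2 pairs that hold Cdc25b or Plk4, 8 of 20 did not overlap. The ratio of Spc24 to Spc25 was 3.09, 1.39, 1.33 and 1.23 in cCLP 1 to 4, against 2.58, 1.19, 3.83 and 3.77 in ex vivo CLP 1 to 4. Log2 ratios here and below are differences of log2(scaled value + 1), so they are not exactly the log2 of the printed ratios. That of Spc24 to Spc25 was 0.38 ± 0.08 in cCLP and 1.69 ± 0.32 in ex vivo CLP (SD, n = 3 each), the largest difference of the 22 pairs, -1.31. Over all 8 libraries the difference was -0.65, with overlapping groups (exact p = 0.257). By contrast the ratio of Ndc80 to Nuf2 lay between 0.73 and 0.88 in all cCLP libraries, against 0.765 to 0.795 in ex vivo CLP.

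For Cdk1 and its cyclins the ratios differed by partner. The ratio of Cdk1 to Ccna2 was 0.519, 0.83, 0.831 and 0.84 in cCLP 1 to 4, against 0.595, 0.823, 0.5 and 0.503 in ex vivo CLP 1 to 4, a log2 difference of 0.64 over the 6 libraries without overlap. That of Cdk1 to Ccnb1 lay between 1.03 and 1.26 in cCLP, against 0.981 to 1.2 in ex vivo CLP, a log2 difference of -0.01 with overlap. Ccnb1 over Ccnb2 differed by 0.48 without overlap on the same scale. In the centralspindlin complex, Kif23 over Racgap1 differed by 0.56 without overlap. Birc5 over Cdca8 was the pair whose groups did not overlap over all 8 libraries. Its log2 ratio was 0.65 ± 0.12 in cCLP and 0.99 ± 0.24 in ex vivo CLP (SD, n = 4 each), a difference of -0.34 (exact p = 0.0286, the smallest that 4 against 4 can give, adjusted p = 0.537 over the 22 pairs).

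**Figure D4:**
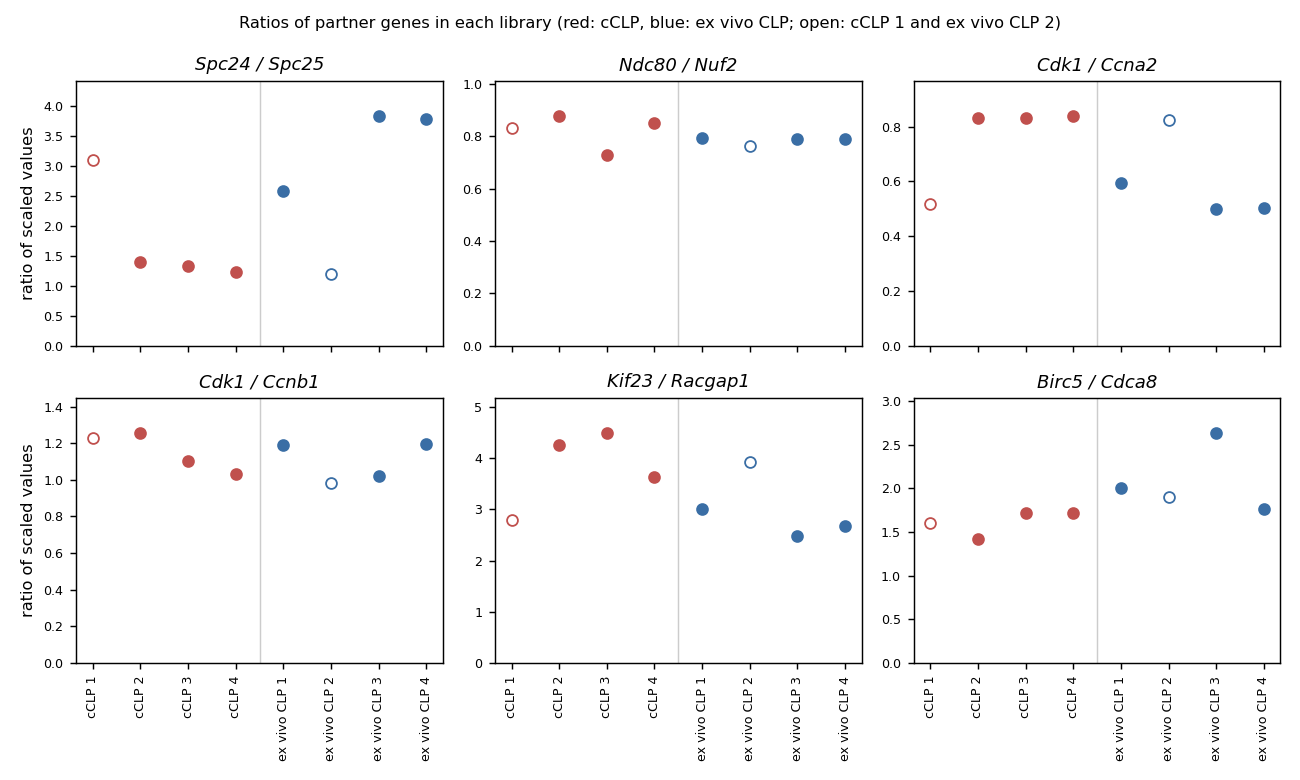
Ratio of the scaled values of 6 pairs of partner genes (vertical axis, from 0) in each of the 8 libraries (horizontal axis, cCLP on the left of each panel). Filled circles are the 6 libraries of the second comparison, and open circles are the libraries labelled cCLP 1 and ex vivo CLP 2. Spc24 over Spc25 lies between 1.23 and 1.39 in cCLP 2 to 4, against 2.58 to 3.83 in ex vivo CLP 1, 3 and 4, while Ndc80 over Nuf2 overlaps.

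A further 134 genes of mitosis in 6 lists, none of them among the 60, were read in the same fits. Over all 8 libraries 110 were tested, 0 were called and the median log2 fold change was -0.17. In the fit over 6 libraries 111 were tested, 53 were lower and 8 higher, with a median of -0.28, where 23% of all genes tested were lower and 20% higher. Cdkn3, Cenpi, Cep152, Melk and Mybl2 reached the minimum in ex vivo CLP alone and Mis12 in cCLP alone, so the filter fixed their direction. Without these 6, 48 of 105 were lower and 7 higher, with a median of -0.28. The counts that follow include them, and the lists differed in their medians. Spindle, centrosome and microtubule genes had 16 of 28 lower, 15 of 27 without Cep152, and none higher (median -0.44), with Ckap2, a spindle-associated microtubule protein, the largest difference (log2 fold change -1.07 ± 0.19, adjusted p = 0.00291). Regulators of mitotic entry and exit had 8 of 13 lower, 6 of 11 without Cdkn3 and Melk, and 1 higher (median -0.43). Melk, a kinase of proliferating cells, averaged 5.67 ± 0.333 in cCLP and 20.2 ± 2.09 in ex vivo CLP, log2 fold change -1.69 ± 0.12, adjusted p = 2.17e-05, although it passed the filter through ex vivo CLP alone. Arpp19, an inhibitor of the phosphatase PP2A, was the gene that was higher (log2 fold change 0.30 ± 0.08, adjusted p = 0.0211), a call that did not hold without cCLP 2, 3 or 4 (adjusted p up to 0.0922).

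Of other kinetochore and centromere genes, 13 of 24 were lower and 4 higher (median -0.40), or 12 and 3 of 22 without Cenpi and Mis12. Cenpb, which binds a box in centromeric repeats, averaged 17.1 ± 2.83 in cCLP and 52.5 ± 8.17 in ex vivo CLP, log2 fold change -1.59 ± 0.15, adjusted p = 0.000105. Mis12, which joins the inner to the outer kinetochore, averaged 14.6 ± 1.19 in cCLP and 7.77 ± 2.49 in ex vivo CLP, log2 fold change 0.85 ± 0.21, adjusted p = 0.0133, but it passed the filter through cCLP alone and lost its call without cCLP 2 (adjusted p = 0.0518). Cohesin and the other condensin genes had 7 of 16 lower and 1 higher (median -0.28): Cdca5, sororin, which protects cohesin, was lower (log2 fold change -0.96 ± 0.17, adjusted p = 0.00279), and Wapl, which releases cohesin, was higher (log2 fold change 0.40 ± 0.10, adjusted p = 0.0135), except without cCLP 4 (adjusted p = 0.0588). The anaphase-promoting complex and its regulators had a median of 0.01, with 4 of 18 lower and 1 higher, no larger shares than the 23% and 20% of all genes tested. Anapc4, a subunit of the complex, was the higher one (log2 fold change 0.44 ± 0.12, adjusted p = 0.0201), a call lost without cCLP 3 or 4 (adjusted p up to 0.0752), and Trip13, an ATPase that takes the checkpoint complex apart, was lower (log2 fold change -0.87 ± 0.11, adjusted p = 0.000467).

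Among subunits of the DREAM and MuvB complexes and of NF-Y, which act on the promoter elements above, 5 of 12 were lower and 1 higher (median -0.24). Without Mybl2, 4 of 11 were lower. Of all genes tested 23% were lower and 20% higher. With each of the 6 libraries left out in turn, Lin9 kept its call in 1 fit, E2f4 in 2 and Nfyb in 5. Rbl1 and Mybl2 kept theirs in all 6. Rbl1, which encodes the pocket protein p107, averaged 15.2 ± 0.359 in cCLP and 34.3 ± 2.87 in ex vivo CLP, log2 fold change -1.15 ± 0.10, adjusted p = 5.68e-05. Lin37, a subunit of the MuvB core, averaged 14.6 ± 1.04 in cCLP and 10.1 ± 2.41 in ex vivo CLP, log2 fold change 0.48 ± 0.17, adjusted p = 0.0457, and lost its call without any of 5 of the 6 libraries (adjusted p up to 0.131). The 8 genes that were higher came from 5 of the 6 lists, but leaving out cCLP 2 or 3 gave 4 higher genes, and leaving out cCLP 4 gave 2. Of the 8, only Zw10, a kinetochore protein that recruits dynein, kept its call without each library in turn (chosen after its values were seen). Its adjusted p without cCLP 2 was 0.05 after rounding, at the threshold itself. Of the 53 lower genes, 31 kept their calls in this way. Whether the lists differ from each other was not tested.

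**Figure D5:**
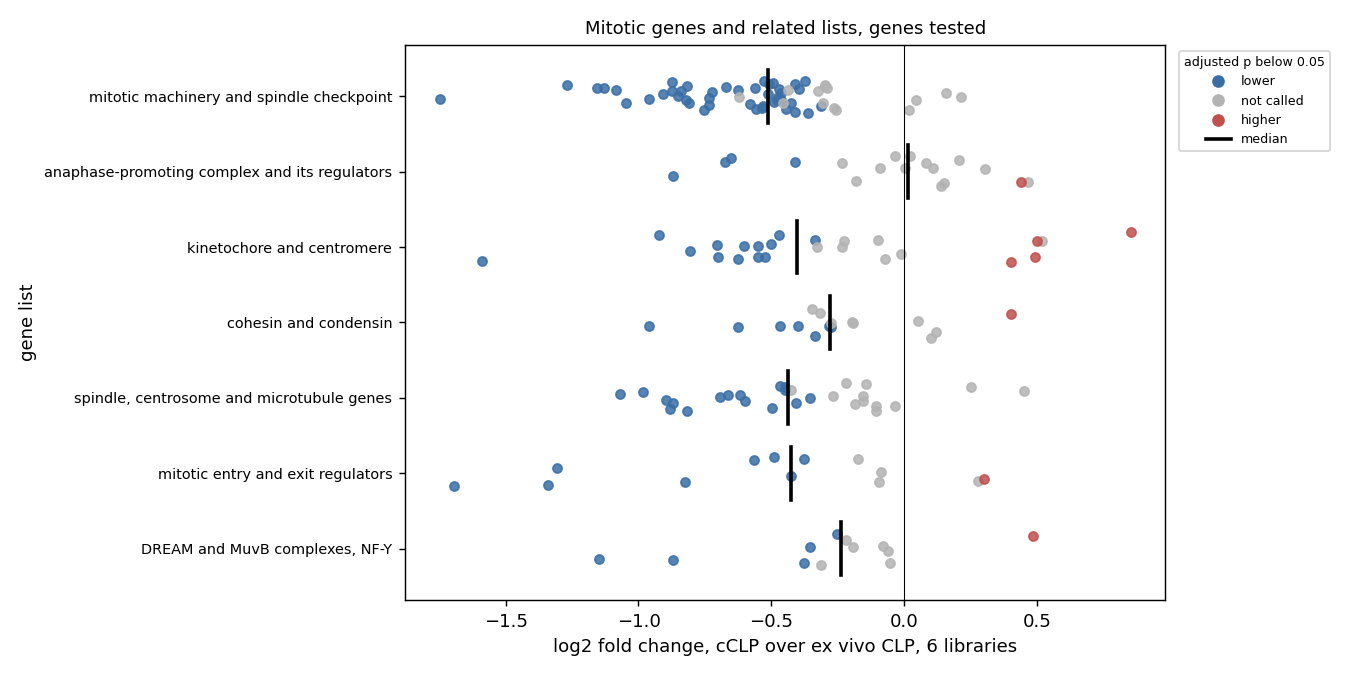
Log2 fold change, cCLP over ex vivo CLP, over 6 libraries (horizontal axis) of each tested gene of the 60 mitotic genes and of 6 related lists (rows). Points are genes, blue where lower and red where higher at an adjusted p below 0.05 and grey where not called, and black bars are medians. The median is -0.51 for the 60 genes, and among the related lists it runs between -0.44 for the spindle list and 0.01 for the anaphase-promoting complex.

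Some values may include reads of other genes. Transcripts of Ccnb1, Cks2, Mad2l1 and Mki67 had matches of at least 95% identity over at least 200 bases at other loci, and how the authors' counting treated reads with several matches is not given in the sources used here. Ccna2, Kif4, Kif20a, Ncapg and Cdc25c overlap a gene on the opposite strand with shared sequence, and the strand setting of the counting is likewise not given. For Kif4 the overlapping gene is Pdzd11, whose deposited values reached 29, and for Kif20a it is Cdc23, with values up to 19.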

How the data were processed

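Per the labels' protocols, RNA was extracted with TRIzol, 100 ng was depleted of ribosomal RNA with Ribo-Zero, and TruSeq stranded libraries were read as pairs of 75 nt on a NextSeq500. Per the submitters' processing notes, TopHat2, Bowtie2 and HTSeq 1.0.6 were used with GRCm38 (mm10). What each tool did, how strand was set, which annotation was counted and any scaling are not given in the sources used here. The values that the authors deposited, 1 whole number for each Ensembl ID, are treated as a score and not as a count. For genes of mean 5 to 50, the dispersion index was 0.458 between ex vivo CLP 3 and 4 (6896 genes) and 0.26 between cCLP 3 and 4 (6793 genes), where simulated counts gave 1.03 and 0.991. Depth is therefore unknown, no counting interval can be given, and count models were not used.

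Symbols and positions came from GENCODE vM21, which matched 37693 of the 39179 IDs. The 1486 others held 0.31% of the summed values. No pair of libraries was identical. Each library was divided by a trimmed mean of log ratios (30% of ratios and 5% of levels trimmed). Genes whose scaled value reached 10 in as many libraries as the smaller group has, or more, were fitted with limma 3.58.1 (R 4.3.3) on log2(scaled value + 1), with trend and robust moderation, checked on simulated data. The two-sided p-values were corrected across all genes tested (Benjamini-Hochberg), and a gene was called below 0.05. Levels in both comparisons use the factors of the 8 libraries. Matching copies were sought with BLAST 2.17.0. Tables used NumPy 2.4.6 and pandas 2.3.3 in Python 3.11.15.

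The genes, their roles, the related lists and the comparison over 6 libraries were chosen with earlier results of these data known. Values by library are given for the genes with the largest and smallest absolute log2 fold change over 6 libraries in each role, for a set of 15 well-known mitotic genes, and for a few others chosen after their values were seen. Of each related list, the called genes with the largest change up and down are named. Alternatives were other scalings, filters, pseudocounts and moderation, protein-coding genes alone, the replicate number as a block, and each library left out in turn. Whether replicate numbers pair the libraries was checked by correlating the deviations of same-numbered libraries from their group means.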

Additional observations from a re-analysis of the deposited data

Results flagged for a closer look

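Each labelled group of 4 libraries was searched, for each of the 60 genes, for 1 library that stood apart from the other 3 by Dixon's criterion. It was met in 18 of 120 groups. Chance meets it in about 1 of 20 independent groups, but these genes were read in the same libraries. The share over all genes was not computed, so the count is a description. In 12 of the 18 the library was cCLP 1, which was high: Foxm1 (13.4), Cdc25b (15.3), Plk4 (15.3), Cdca8 (23.9), Cenph (27.7), Cenpm (38.2), Spc24 (64.9), Anln (16.2), Ect2 (27.7), Smc4 (98.3), Ncapd2 (129) and Ncapg (22.9). Cenpm had 9.52 to 10.1 in the other 3 cCLP libraries. In ex vivo CLP 2 the scaled values of Mad2l1 (41.3), Prc1 (15.6) and Ncapg (16.8) were low. These are the libraries that lay with the other group in the profile of all genes, and why they did was not tested. Outside them, Cdk1 was low in cCLP 2 (41.2), Kif20a was high in ex vivo CLP 3 (54.5) and Cenpk was high in ex vivo CLP 1 (18.1).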

How the results depend on the processing

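Over all 8 libraries no mitotic gene, related gene or other gene was called under any of 10 alternatives or without any single library. Without cCLP 1 and ex vivo CLP 2 together, 44 mitotic genes were lower, 8 related genes higher and 53 lower, and of all genes 1322 were higher and 1522 lower. Over those 6 libraries, leaving out each in turn gave 35 to 45 mitotic genes lower, 2 to 11 related genes higher and 36 to 54 lower, and 878 to 1531 genes higher and 1234 to 1862 lower in all, the fewest higher without cCLP 4. Without a filter on low values 2157 genes were higher and 2833 lower, and 42 mitotic genes lower. Other scalings gave 41 to 44. No mitotic gene was higher under any alternative run, and 29 of the 44 kept their call in all of them.

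The direction changed for genes near 0. Leaving out 1 library of the 8 gave log2 fold changes of -0.252 to 0.152 for Incenp, -0.299 to 0.128 for Cdca8, -0.184 to 0.054 for Cenpe, -0.175 to 0.021 for Kif2c and -0.167 to 0.046 for Spc25. Without cCLP 1 and ex vivo CLP 2 together they were 0.017 for Kif2c and 0.043 for Spc25. Leaving out 1 of the 6 gave -0.045 to 0.345 for Plk1, -0.108 to 0.14 for Kif2c and -0.045 to 0.15 for Spc25. The cause was not tested.

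The labels do not say that a replicate number marks a shared animal, culture or day. The correlations of the deviations of same-numbered libraries were 0.593, 0.843, -0.577 and -0.859, but their signs follow from labelled means that include cCLP 1 and ex vivo CLP 2, so they show nothing about pairing. Among the 6 libraries only numbers 3 and 4 occur in both groups, with correlations of 0.174 and -0.466, and the block there compares those 4 libraries alone. With the replicate number as a block, 0 mitotic genes were called over 8 libraries, and 35 were lower over 6, with 38 related genes lower. Of these 35, 32 were also lower without the block. Incenp, Cdca8 and Ube2c were added (adjusted p = 0.018, 0.0204 and 0.00444), and 12 calls were not made (Aurka, Bub1, Ttk, Cdc20, Tpx2, Hmmr, Kif15, Kif20a, Kif22, Ndc80, Nuf2 and Smc2, adjusted p between 0.0666 and 0.29).

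Depth is unknown, so how far it limits the low genes cannot be given.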
